A study of Homo sapiens with 11 samples.

Results

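The genes described here are those of the cytosolic ribosomal proteins, measured by RNA-seq in RWPE1 cells kept in normoxia or moved to hypoxia. They were chosen by name from the count table: protein-coding genes whose symbol starts with RPL or RPS followed by a number, with RPLP0, RPLP1, RPLP2, RPSA and FAU, and without the RPS6K kinases and chromosome Y. This gave 85 of 60676 genes, 52 of the large and 33 of the small ribosomal subunit. Of these, 7 are paralogues of another member (RPL3L, RPL7L1, RPL10L, RPL22L1, RPL26L1, RPL39L and RPS27L) and 78 are core members. The filter on low counts kept 84 members, every one but RPL10L, a testis gene with 1 to 7 counts in a library.

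The cytosolic ribosome is built from ribosomal RNA and a set of proteins needed in near equal numbers, so the genes of these proteins are known for being expressed together and at high level. Many of their mRNAs begin with a C followed by a run of pyrimidines, the 5′ terminal oligopyrimidine tract, through which mTORC1 and the RNA-binding protein LARP1 control their translation and stability. Ribosome production is one of the largest costs of a growing cell and is known to be lowered when oxygen or nutrients run short.

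RWPE1 cells, an established line from the epithelium of the prostate that forms no tumours, were grown in keratinocyte serum-free medium with EGF and bovine pituitary extract. The 11 libraries fall into 4 groups: untreated cells in normoxia (0 h, n = 3) and cells held at 1% oxygen for 6 h (n = 3), 12 h (n = 3) or 24 h (n = 2). The medium of the hypoxic cells also held 10 mM HEPES, so oxygen and buffer cannot be told apart in any comparison with 0 h. Another 24 h library was not analysed here. Nothing states that replicates came from separate cultures, and p-values measure the spread between these samples, which may be technical.

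The sequence at the annotated transcription start is shown for 10 members whose changes are described further on, so that genes with and without a pyrimidine tract can be compared. Each window runs from 5 bases before the start to 20 bases from the start on, 5′ to 3′ (RefSeq, GRCh38.p14), and capitals mark the tract where a C at the start is followed by at least 4 pyrimidines (C or T).
RPL35 (chr9:124861938-124861962, minus strand): acttcCTCTTTCCCTCggagcgggc
RPL26 (chr17:8383174-8383198, minus strand): tagttCTCTTCCCTTTTgcggccat
RPS6 (chr9:19380217-19380241, minus strand): tggccCTCTTTTCCgtggcgcctcg
RPLP0 (chr12:120201092-120201116, minus strand): gaggcCCTTCTCTCgccaggcgtcc
RPS24 (chr10:78033858-78033882, plus strand): tggttCTCTTTTCCTCCTTggctgt
RPL22L1 (chr3:170870176-170870200, minus strand): gcttcCTCTCTgctctcgcggccga
RPL9 (chr4:39458903-39458927, minus strand): acgacagacgttctttctttgctgc
RPL7L1 (chr6:42879611-42879635, plus strand): gcgccgtagctaggagcggacgcca
RPS27L (chr15:63157458-63157482, minus strand): cgagcgcagatcgcttgcagcttgc
RPL26L1 (chr5:172958724-172958748, plus strand): gggtcggcgaacgaaacgcggagct

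A promoter sequence (250 bases before to 50 bases from the start on) was found for 68 of the 85 members. A tract stood at the annotated start of 44 of these 68 (64.7%), against 4.04% of 27305 promoters of the same length and 4.66% of those of coding genes. Among the 5 paralogues with a promoter it was present in 1, RPL22L1. The letters CCGGAAG, the core of an ETS factor site, were found on either strand in 33.8% of the members' promoters. They were in 10.7% of all promoters and 14.4% of those of coding genes. CACGTG, the E-box known from MYC, was found in 5.88%, against 7.43% of all and 8.89% of coding promoters. ACGTG, the core of the hypoxia response element, which CACGTG contains, was found in 30.9%, against 21.6% and 23.7%. Each share counts letters in this window and says nothing of binding.

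Between 27496009 and 49488345 reads were counted per library. The basal epithelial markers were present (8 of 8 over 1 CPM, a count scaled to the size of its library, at 0 h, led by KRT5), as were 4 of 8 luminal markers, led by KRT8. At 0 h no endothelial or leukocyte marker was over that level, and of 6 fibroblast markers COL1A1 was. Library 24 h replicate 2 stood apart. Its trimmed mean of M-values (TMM) factor, which rescales a library so that the bulk of genes is centred between libraries, was 0.539, against 0.851 in 24 h replicate 1 and 0.910 to 1.32 in the other 9. The summed level of the basal markers (TMM-scaled CPM) lay between 12903 and 16424 in normoxia, and between 20544 and 27069, 32076 and 35852, and 31609 and 57732 after 6, 12 and 24 h. The luminal sum lay between 232 and 262 in normoxia, and between 622 and 812, 822 and 892, and 1068 and 1799 after 6, 12 and 24 h, and the fibroblast sum between 47.2 and 60.6 in normoxia and 27.98 and 30.5 after 24 h. The leukocyte sum lay between 0.763 and 1.07 in normoxia, and between 3.34 and 3.57, 2.49 and 3.79, and 2.51 and 5.01 after 6, 12 and 24 h. The endothelial sum was 0.471 at most. The part of these shifts in the results was not tested. The medians and the ranges of the members at 24 h are therefore also given with each library singly. Values of single genes and of gene lists at 24 h are over both libraries unless stated.

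Ribosomal protein genes took a rising part of all RNA-seq counts through the time course. Their share was 6.73%, 6.88% and 6.92% in the 3 normoxic libraries, 7.41%, 7.54% and 8.74% at 6 h, and 12.1%, 9.58% and 10.1% at 12 h. At 24 h it was 15.7% in replicate 1 (exact 95% binomial interval 15.68% to 15.71%, counting error only) and 25.2% in replicate 2 (25.18% to 25.21%). The libraries of each time point lay above all libraries of the time before, and the pair at 24 h was the widest apart. In group means the share was 6.84% ± 0.096 (SD, n = 3), 7.89% ± 0.74 (n = 3), 10.6% ± 1.3 (n = 3) and 20.4% ± 6.7 (n = 2), which is 1.15, 1.54 and 2.99 times normoxia at 6, 12 and 24 h, and 2.29 and 3.68 times in the 24 h libraries singly. These shares carry no scaling between libraries and no test. In bulk RNA, fewer cells of a type and less RNA per cell cannot be told apart.

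The balance between subunits moved little. Counts on large-subunit genes were 1.57 to 1.59 times those on small-subunit genes at 0 h, 1.57 to 1.64 times at 6 h, 1.63 to 1.66 times at 12 h, and 1.60 and 1.56 times at 24 h. Among the 20 genes with most counts in a library, ribosomal protein genes numbered 1 in each normoxic library, 0 or 1 at 6 h, 3 at 12 h, and 9 and 12 in 24 h replicates 1 and 2. Among the top 100 they numbered 30 in each normoxic library, 26, 26 and 34 at 6 h, 41, 34 and 34 at 12 h, and 48 and 55 at 24 h.

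Other parts of the libraries moved with this share. The 1602 pseudogenes of ribosomal proteins took 2.57% ± 0.034 (n = 3) of counts at 0 h, 3.04% ± 0.32 at 6 h, 3.84% ± 0.55 at 12 h, and 6.05% and 10.2% at 24 h. Per 100 counts on the genes this was 37.1 to 37.9 at 0 h and 35.9 to 40.5 over the hypoxic libraries. Mitochondrially encoded genes fell from 10.3% ± 0.079 (n = 3) to 4.89% ± 0.51 and 5.64% ± 1.0 (n = 3 each), and to 1.74% and 0.369% in 24 h replicates 1 and 2. With the mitochondrially encoded genes taken out of the total, the share on ribosomal protein genes was 7.63% at 0 h and 20.6% at 24 h. The part of library composition in the rise was not tested further.

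**Figure D1:**
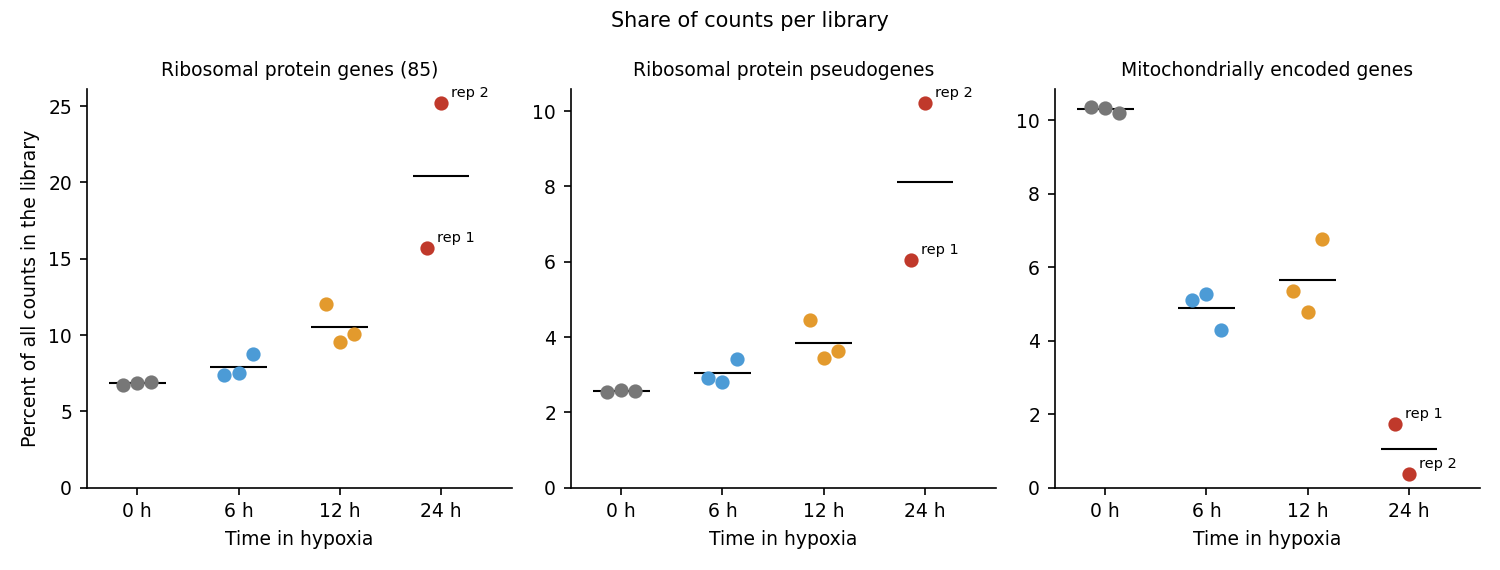
Percent of all counts in each of the 11 libraries on the 85 ribosomal protein genes, on their 1602 pseudogenes and on mitochondrially encoded genes, by time in hypoxia. Points are libraries and bars are group means. The genes and their pseudogenes were highest in 24 h replicate 2 (25.2% and 10.2%), where the mitochondrial share was lowest (0.369%).

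At 6 h the ribosomal protein genes stood slightly above normoxia as a set, and few passed the test. The median log2 fold change of the 84 tested members was 0.52 (1.43-fold), beside -0.002 for all 19981 tested genes. A gene was called where its p by edgeR (quasi-likelihood), adjusted by Benjamini-Hochberg across every tested gene, was under 0.05. Of the members, 14 members were higher and 0 lower, where 25.1% of all tested genes were called higher and 27.7% lower. At an unadjusted p under 0.05, 26 members were higher and 0 lower, beside 11725 of the 19981 tested genes in either direction. DESeq2 called 23 members higher (26.1% of tested genes), while sample quality weights in limma-voom gave 73 higher (32.8%) and 1 lower (33.2%). In 68 of the 84 members all 6 h libraries lay above all normoxic libraries, as they did in 33.6% of the tested genes.

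The 14 called at 6 h were FAU, RPL5, RPL6, RPL7A, RPL7L1, RPL19, RPL22, RPL24, RPL32, RPS4X, RPS13, RPS15A, RPS20 and RPS25, with log2 fold changes of 0.52 to 0.93, the list being given after the values were seen. FAU, which encodes ribosomal protein S30 fused to a ubiquitin-like protein, had 154, 148 and 163 CPM at 0 h and 294, 302 and 289 CPM at 6 h. Its libraries did not overlap, and the log2 fold change was 0.93 (SE 0.28, adjusted p = 0.0147 by edgeR), with the call lost without 0 h replicate 2 (0.0531). RPL24, a large-subunit protein at the interface with the small subunit, had 298, 306 and 304 CPM at 0 h and 521, 513 and 549 CPM at 6 h. Its log2 fold change was 0.80 (SE 0.26, adjusted p = 0.0220), and the call was lost without any one of the 0 h libraries (0.0618 to 0.0663) or 6 h replicate 3 (0.0548).

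The count at 6 h turned on the libraries in the fit. Without a 0 h library it was 2, 1 and 2 (replicates 1 to 3), where 20.4% to 20.7% of tested genes were called higher. Without a 6 h library it was 5, 5 and 3 (21.5% to 23.7%), and leaving out 12 h replicate 2 or 3 gave 9 or 8 (23.1% and 23.8%). Leaving out 24 h replicate 1 gave 67 (30.2%) and leaving out replicate 2 gave 69 (30.3%), in a fit where all groups share an estimate of the spread. With the 0 h and 6 h libraries alone it was 72 higher (31.6%) and 1 lower (33.8%).

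At 12 h the rise was general. The median log2 fold change was 1.07 (2.10-fold), beside -0.03 for all tested genes, and 77 members were called higher and 0 lower by edgeR, where 24.2% of tested genes were called higher and 27.1% lower. The 77 comprised 75 of the 78 core members, with 46 of 51 large-subunit and 31 of 33 small-subunit genes. Among the members not called were RPL36A, RPL17 and the paralogues RPL26L1, RPL39L, RPL3L and RPS27L. In 80 members all 12 h libraries lay above all normoxic ones, as in 34.8% of the tested genes.

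RPL26, a protein near the exit of the nascent peptide and known for binding p53 mRNA, had the largest log2 fold change at 12 h. It had 293, 271 and 283 CPM at 0 h, and 993, 596 and 747 CPM at 12 h. The groups did not overlap, with a log2 fold change of 1.46 (SE 0.32, adjusted p = 0.00241 by edgeR). RPL41, RPL8, RPL24 and FAU came next, at 1.35, 1.33, 1.32 and 1.31.

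Between 6 h and 12 h the median rose by 0.56, but no member was called by edgeR in either direction, where 1.88% of tested genes were called higher and 3.07% lower. At an unadjusted p under 0.05, 33 members were higher and 0 lower, beside 4231 of all tested genes in either direction, and in 71 of 84 all 12 h libraries lay above all 6 h libraries (15.9% of tested genes). DESeq2 called 1 higher (3.63% of tested genes), while sample quality weights in limma-voom gave 62 (10.6%). Without 24 h replicate 1 or 2 in the fit the edgeR count was 66 or 68 (8.38% and 8.96%).

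At 24 h nearly all ribosomal protein genes were several-fold higher than in normoxia. The median log2 fold change was 2.56 (5.89-fold), beside -0.06 for all tested genes, and 81 of 84 members were called higher and 0 lower by edgeR, where 29.9% of tested genes were called higher and 31.3% lower. In 82 members both 24 h libraries lay above all normoxic ones, as in 33.7% of the tested genes. The 75 core members with a mean of 22.3 CPM or more in normoxia lay between 1.87 (RPS23) and 3.55 (RPL35), and all 75 were called. The members not called included RPL7L1 at -0.03 and RPL36A at 0.34. From 12 h to 24 h the median rose by 1.50, with 82 members called higher and 0 lower, where 15.1% of tested genes were called higher and 13.3% lower. RPL7L1 was not called there. Fitted on the 12 h and 24 h libraries alone, the same comparison called 0 of all 17807 genes tested, members included.

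Both 24 h libraries showed the rise and differed in its size. With replicate 1 as the only 24 h library the median log2 fold change was 1.79, and with replicate 2 it was 3.05. A fit with a single 24 h library assumes that it varies like the other groups, so its calls are left out here. The 75 core genes lay at 1.28 to 2.39 in replicate 1 and 2.16 to 4.23 in replicate 2. Between the pair, 82 of 84 members were higher in replicate 2, by a median of 1.30 on the log2 scale of TMM-scaled CPM. The same count over all tested genes was not made. Among the widest gaps were those of RPL35 (2.33), RPL9 (2.11), RPL27 (1.90) and RPS10 (1.87). Against 12 h, the median was 0.69 with replicate 1 and 1.98 with replicate 2.

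The size of these values depended on the scaling. With library size alone in place of TMM, the median of all tested genes moved to -0.32, -0.50 and -0.97 at 6, 12 and 24 h, and that of the members to 0.20, 0.59 and 1.51. A scaling shifts all genes of a library alike, so the distance between these medians is no independent check. The calls were then 2 higher and 2 lower at 6 h, 60 and 3 at 12 h, and 77 and 3 at 24 h, where 13.6%, 10.6% and 11.1% of tested genes were called higher and 35.7%, 42.3% and 56.6% lower.

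**Figure D2:**
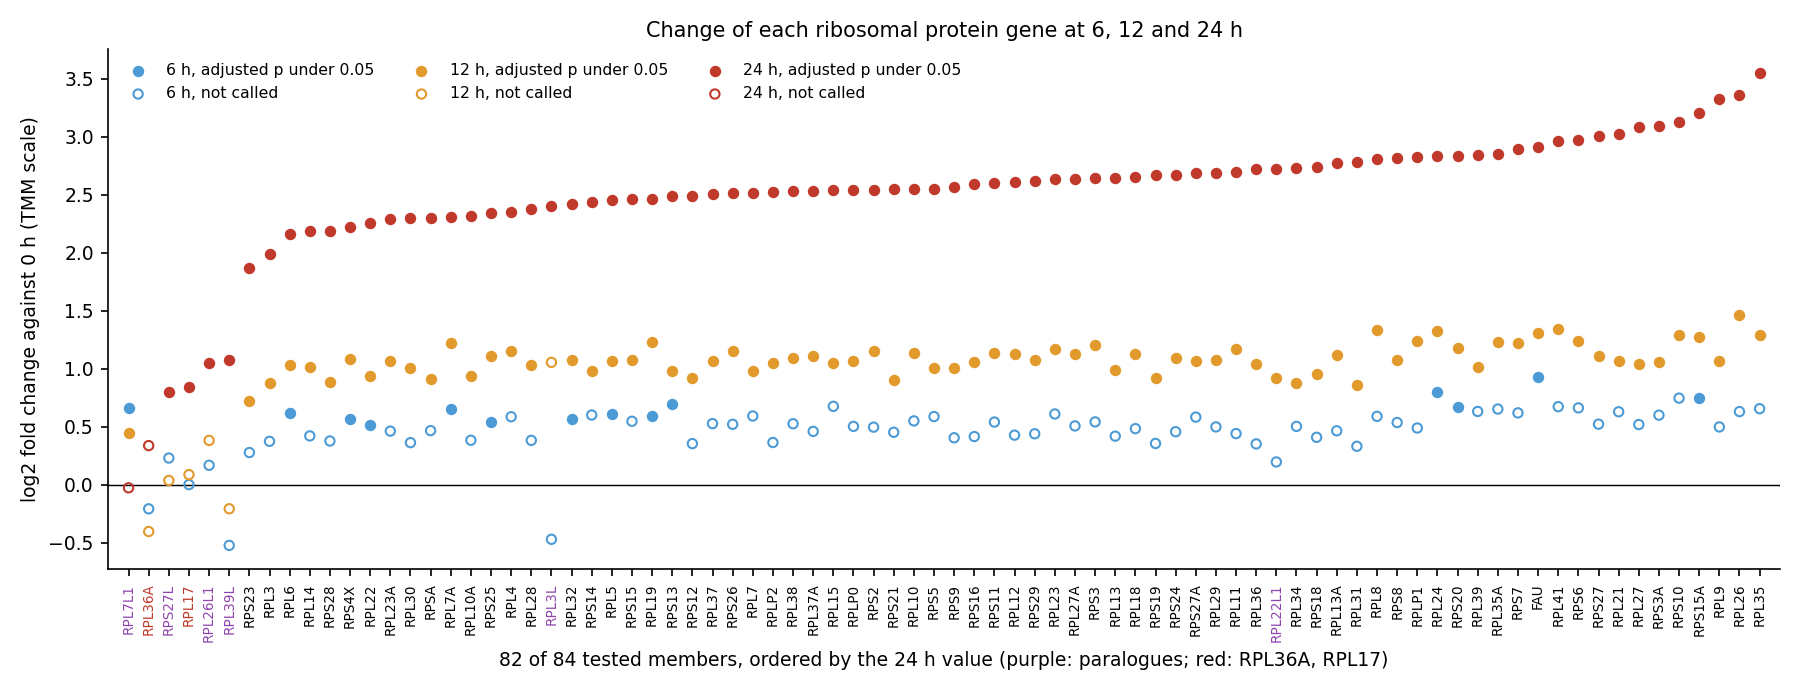
Log2 fold change against 0 h (y axis, TMM scale) of 82 of the 84 tested members (x axis, ordered by their 24 h value) at 6, 12 and 24 h. Filled points were called and open points were not. The 24 h points of the core genes other than RPL36A and RPL17 lie between 1.87 and 3.55, while RPL36A, RPL17 and 4 paralogues lie lower.

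**Figure D3:**
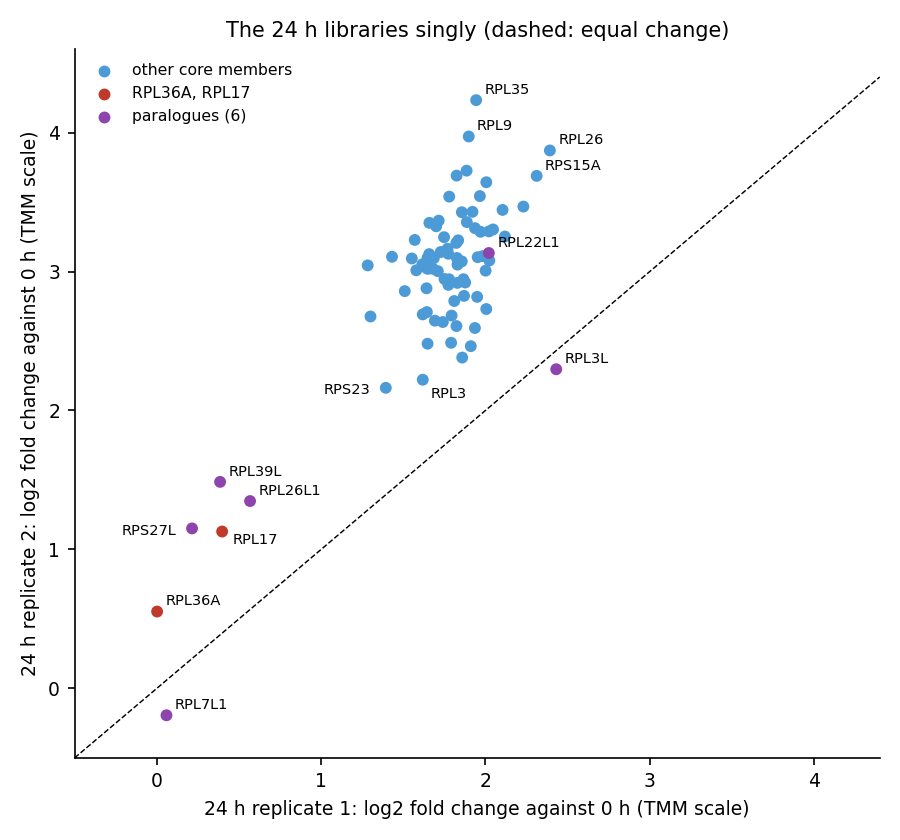
Log2 fold change against 0 h (TMM scale) of 82 of the 84 tested members with 24 h replicate 1 (x axis) or replicate 2 (y axis) as the only 24 h library. The dashed line marks equal change, and the core genes other than RPL36A and RPL17 lie above it, at 1.28 to 2.39 on the x axis and 2.16 to 4.23 on the y axis.

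The ribosomal stalk, which binds elongation factors, is made of RPLP0, RPLP1 and RPLP2. RPLP0 had 1455, 1521 and 1574 CPM at 0 h, 2064, 2028 and 2361 at 6 h, 3798, 2689 and 3036 at 12 h, and 5031 and 12637 at 24 h. The libraries of each time point lay above all those of the one before. Its log2 fold changes were 0.50 (SE 0.28, adjusted p = 0.152), 1.07 (0.29, 0.00813) and 2.54 (0.32, 2.83e-05) by edgeR. RPLP1 and RPLP2 had 2.83 and 2.52 at 24 h.

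RPL5 and RPL11 travel with 5S rRNA and are known for binding MDM2 when ribosome assembly fails. RPL5 had 962, 975 and 997 CPM at 0 h and 3981 and 6746 CPM at 24 h, a log2 fold change of 2.46 (SE 0.25, adjusted p = 6.39e-06). RPL11 had 835, 817 and 857 CPM at 0 h and 3353 and 7511 CPM at 24 h, a log2 fold change of 2.70 (SE 0.29, adjusted p = 1.01e-05). The 24 h libraries of each gene lay above all others.

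Small-subunit genes with roles outside the ribosome moved by similar amounts. RPS6, the substrate of the S6 kinases, had 1067, 1104 and 1117 CPM at 0 h and 4778 and 12396 CPM at 24 h (log2 fold change 2.97, SE 0.33, adjusted p = 1.21e-05). RPS3, at the mRNA entry site and also known from DNA repair, had 2.64 at 24 h, and RPSA, the precursor of the laminin receptor, 2.30. RPS27A, made as a fusion with ubiquitin, had 2.68, and FAU 2.91.

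RPLP0, RPL13A and RPS18 are widely used as reference genes in quantitative PCR. RPL13A had 1455, 1474 and 1602 CPM at 0 h, 2001, 2109.9 and 2147 at 6 h, 3650.2, 2876 and 3310.0 at 12 h, and 4975 and 15738 at 24 h. It was called at 12 h (log2 fold change 1.12, SE 0.32, adjusted p = 0.0115) and 24 h (2.78, SE 0.36, 3.47e-05). RPS18, highest of all members per kilobase in normoxia at 2570.1 CPM per kilobase, was called at 12 h (0.96, SE 0.30, adjusted p = 0.0173) and 24 h (2.74, SE 0.33, 2.29e-05). Its 12 h call was lost without any one of the 0 h libraries (0.0524 to 0.0557) or 12 h replicate 1 (0.0663), and with library size alone (0.48, 0.0637). With library size alone, RPLP0, RPL13A and RPS18 stood at 1.48, 1.69 and 1.67 at 24 h.

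In normoxia the next highest per kilobase of canonical transcript were RPS24, RPL12, RPS2 and RPL7A, at 2354, 2312, 2242 and 1968 CPM per kilobase. The lowest tested were RPL3L (0.0539), RPS27L (3.50), RPL17 (4.80) and RPL36A (4.93). Annotated lengths are long for a few genes, RPS27L among them at 6110 bases, which lowers their value per kilobase.

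To ask which genes left the common movement, the fit was repeated on a scale taken from the members. Library size was the counts on the tested members times TMM factors over these members. Here 0 stands for the trimmed centre of the members' own changes, called the pool. Such centring sets most members around 0 in advance, so only spread and departures are described. The 75 core genes below leave out core genes with few counts, described further on, that were called below the pool. At 6 h and 12 h all 75 core genes lay within 0.5 log2 units of the pool, and at 24 h 70 of 75 did, with an SD of 0.26 across genes. In this fit 0 members were called higher and 1 lower at 6 h (6.36% and 32.7% of tested genes), 0 and 6 at 12 h (2.63% and 58.8%), and 5 and 7 at 24 h (0.921% and 85.3%). At an unadjusted p under 0.05 no member was higher at 6 h or 12 h. Fits without a 24 h library called members above the pool at 6 h and 12 h, so these counts turned on the libraries in the fit.

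Above the pool at 24 h were RPL35 (0.77, SE 0.25, adjusted p = 0.0111), RPL26 (0.73, 0.23, 0.0102), RPS15A (0.59, 0.23, 0.0263), RPL9 (0.58, 0.24, 0.0324) and RPL21 (0.44, 0.20, 0.0495). RPL35 sits beside RPL26 at the peptide exit. It had 607, 595 and 652 CPM at 0 h, 962, 937 and 1023 at 6 h, 1838, 1256 and 1458 at 12 h, and 2409.6 and 12083 at 24 h. Its excess over the pool came from replicate 2 (1.19) more than replicate 1 (0.16), as did that of RPL9 (0.93 and 0.12), while RPL26 stood at 0.83 and 0.61 and RPS15A at 0.65 and 0.53. The 5 calls were 2 without any one of the 0 h libraries, in fits where the share over all tested genes was not counted.

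The lowest of the 75 core genes were RPS23, a protein of the decoding centre, at -0.61 (SE 0.28, adjusted p = 0.0528) and RPL3, which reaches the peptidyl transferase centre, at -0.45 (SE 0.21, adjusted p = 0.0592), neither of which was called. RPL3 had 1065, 1042 and 1103 CPM at 0 h and 3332 and 5188 CPM at 24 h, so it rose 3.98-fold where RPL35 rose 11.7-fold. Across the 75 core genes the position relative to the pool had a Spearman rho of -0.07 with GC content, -0.32 with transcript length and -0.01 with the level in normoxia, all over the same libraries.

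**Figure D4:**
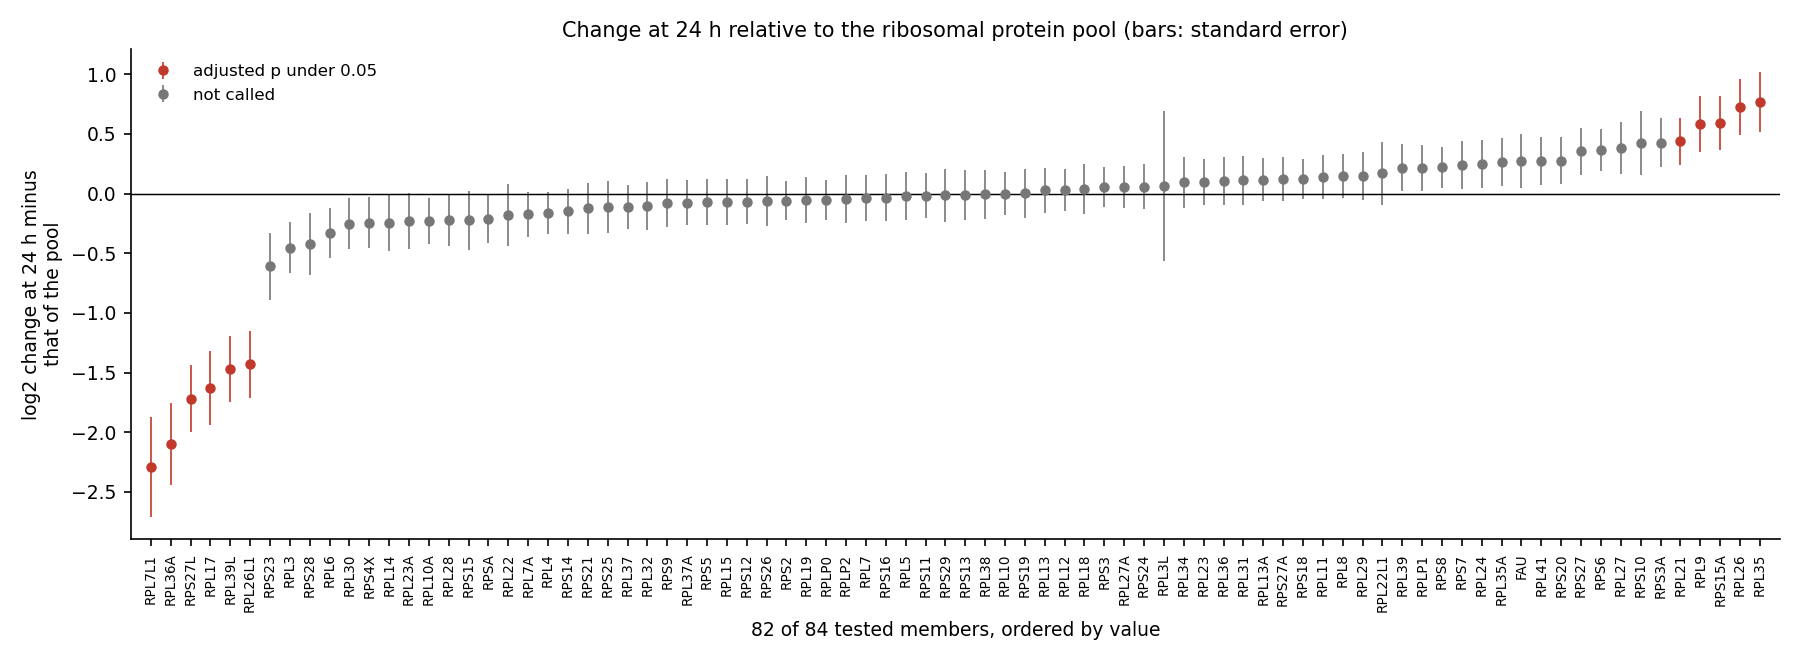
Log2 change at 24 h relative to the ribosomal protein pool (y axis) for 82 of the 84 tested members (x axis), with bars of 1 standard error. Called members are in red: RPL35, RPL26, RPS15A, RPL9 and RPL21 above the pool, and RPL7L1, RPL36A, RPS27L, RPL17, RPL39L and RPL26L1 below it.

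Among the members below the pool at 24 h were core genes with few counts of their own. RPL36A (chrX:101390824-101396155) had 3.56 to 4.05 CPM at 0 h, and 3.81 and 5.72 CPM at 24 h. RPL17 (chr18:49488453-49492508) had 2.70 to 3.08 CPM at 0 h, and 3.94 and 6.70 CPM at 24 h. The 75 core genes had group means from 22.3 CPM (RPS10) to 2452 CPM (RPL4) at 0 h. Relative to the pool RPL36A and RPL17 stood at -2.10 and -1.63 (adjusted p = 7.46e-05 and 0.000269 by edgeR). RPL17 was called against 0 h (0.84, SE 0.26, adjusted p = 0.0146), and stood at 0.40 with replicate 1 as the only 24 h library. The call was lost without 0 h replicate 1 (0.0517), with sample quality weights (0.174), with a length and GC offset (0.203) and with library size alone (-0.15, 0.591).

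These genes share sequence with other annotated genes. In the annotation 96.9% of the exonic bases of RPL17 lie on the same strand as exons of another gene, as do 43.8% of RPL36A, 84.0% of RPS10 and 65.3% of RPL26, and 76 members have none. The read-through genes RPL17-C18orf32, RPL36A-HNRNPH2 and RPS10-NUDT3 are listed at 0 in all libraries. At 0 h the pseudogenes of RPL17 held 11978 counts for each 100 on the gene, those of RPL36A 10426 and those of RPS10 1039.8. In all, 13 of the 78 core genes had over 100 pseudogene counts for each 100 of their own at 0 h. With pseudogene counts added to each parent gene, the log2 fold changes at 24 h were 2.92 for RPL36A, 2.84 for RPL17 and 2.38 for RPS10. With that addition 4 members were called below the pool at 24 h in place of 7, where the share over all tested genes was not counted. How reads with several matches were counted is not stated in the sources used here. For the 25 core genes with under 1 pseudogene count per 100 of their own, the medians at 6, 12 and 24 h were 0.49, 1.08 and 2.62.

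Of the 6 tested paralogues, 4 were called below the pool at 24 h: RPL7L1 (-2.29, SE 0.42, adjusted p = 0.000191), RPS27L, RPL39L and RPL26L1. Over all tested genes 85.3% were called lower in that fit, so standing below the pool is not particular to paralogues. RPL7L1, a relative of RPL7 known from the making of large subunits in the nucleolus, had 135, 134 and 139.7 CPM at 0 h, 246, 231 and 169.5 at 6 h, 173, 189.6 and 193 at 12 h, and 144 and 124 at 24 h. It was highest at 6 h and near its normoxic level at 24 h. Its log2 fold change was 0.66 at 6 h (SE 0.15, adjusted p = 0.00296), 0.44 at 12 h (0.15, 0.0269) and -0.03 at 24 h (0.17, 0.906) by edgeR, while RPL7 had 0.59, 0.98 and 2.52. The 12 h call was lost without any one of the 0 h libraries (0.0694 to 0.0833) or 12 h replicates 2 and 3 (0.0902 and 0.0849), with no filter (0.0660) and with at least 10 counts in every library (0.0699). With library size alone the 6 h value was 0.34 (0.211) and the 12 h value -0.023 (0.938). Set directly against 6 h, a comparison added after these values were seen, RPL7L1 fell by 0.69 at 24 h (SE 0.17, adjusted p = 0.00724). It was the 1 member called lower there, with 80 called higher, where 20.3% of tested genes were called lower and 22.1% higher. The log2 difference ran from -0.83 to -0.58 with 1 library left out, and stayed called in the fits that kept both 24 h libraries. The call was lost with sample quality weights (adjusted p = 0.0654), with the 6 h and 24 h libraries alone (0.0807) and with a length and GC offset (-0.33, 0.0978). With that offset RPL7L1 was also called higher than in normoxia at 24 h (0.39, adjusted p = 0.0368).

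RPS27L, a p53-inducible relative of RPS27, had 22.6, 21.4 and 20.1 CPM at 0 h, and 25.2 and 49.4 CPM at 24 h. RPL39L, a relative of RPL39 best known from testis, had 10.9, 8.88 and 9.95 CPM at 0 h, 5.50, 6.78 and 8.36 at 6 h, and 13.1 and 28.9 at 24 h. RPL26L1, nearly identical in protein sequence to RPL26, had 19.0, 17.1 and 19.7 CPM at 0 h, and 27.9 and 49.2 at 24 h. Their log2 fold changes at 24 h were 0.80 (SE 0.24, adjusted p = 0.0122), 1.08 (0.29, 0.00575) and 1.05 (0.21, 0.00107), against 3.01, 2.85 and 3.36 for RPS27, RPL39 and RPL26. Relative to the pool they stood at -1.72, -1.47 and -1.43 (adjusted p = 7.74e-05, 0.000237 and 0.000294). With replicate 1 as the only 24 h library, RPS27L and RPL39L stood at 0.21 and 0.39 against 0 h. Their calls were lost with sample quality weights in limma-voom (adjusted p = 0.100 and 0.0634). With library size alone the values of RPS27L, RPL39L and RPL26L1 were -0.22, 0.04 and 0.05. RPL39L was the 1 member called below the pool at 6 h (-1.05, SE 0.24, adjusted p = 0.00393).

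RPL22L1, known for being held down by RPL22 protein, was not called against the pool at any time. It had 24.3, 25.8 and 25.2 CPM at 0 h, 32.5, 23.7 and 30.2 at 6 h, 55.9, 43.5 and 42.9 at 12 h, and 103 and 229 at 24 h. Its log2 fold change was 2.73 at 24 h (SE 0.27, adjusted p = 5.53e-06), beside 2.25 (SE 0.21) for RPL22, and relative to the pool it stood at 0.17 (SE 0.26, adjusted p = 0.551). RPL3L, a gene of heart and skeletal muscle, had 2 to 15 counts in a library and a log2 fold change of 2.40 (SE 0.46) at 24 h. RPL10L was not tested.

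The medians of members with and without a pyrimidine tract at the annotated start lay close together, with no test made. At 6, 12 and 24 h they were 0.50, 1.07 and 2.66 for the 44 with a tract, which ran from 5 to 19 bases. They were 0.52, 1.07 and 2.46 for the 23 tested members with a promoter and without a tract. The tract was sought only at the annotated start, so a run a few bases away, as in the window of RPL9, was not counted. The group without a tract may therefore hold mRNAs that have one. Among core members alone the medians at 24 h were 2.65 for the 43 with a tract and 2.49 for the 20 without. Of the windows printed above, RPL35, RPL26, RPS6, RPLP0, RPS24 and RPL22L1 have a tract and rose by 2.54 to 3.55 at 24 h. RPL9 has none at its start and rose by 3.33. RPL7L1, RPS27L and RPL26L1, all of them paralogues, have none and stood at -0.03 to 1.05. RPL36A, whose window is not printed, has a tract of 10 bases and was not called at 24 h. The printed windows therefore do not stand for the groups.

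Short transcripts rose more than long ones over the whole table, and ribosomal protein transcripts are short. The 75 core genes had a median canonical length of 869 bases. Among coding genes other than the members, the median log2 fold change at 24 h was 1.25 for 756 genes of up to 1000 bases, 0.58 for 2482 genes of 1000 to 2000, 0.04 for 5040 genes of 2000 to 4000 and -0.49 for 5440 longer genes. At 6 h the same medians were 0.26, -0.001, -0.03 and -0.01. Within the core set the 42 genes of up to 1000 bases had a median of 2.68 at 24 h and the 33 longer ones 2.54. With an offset for length and GC content in each library, the median of the members was 0.54, 1.04 and 2.31 at 6, 12 and 24 h, beside 0.08, 0.05 and 0.15 for all tested genes.

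Related gene lists were set beside the members as counts and medians, without a test of the list, beside 25.1%, 24.2% and 29.9% of all tested genes called higher and 27.7%, 27.1% and 31.3% lower at 6, 12 and 24 h, and the genes named from them were picked after their values were seen. All values are on the TMM scale. The lists were not matched for transcript length. At 24 h coding genes of up to 1000 bases had a median of 1.25, and those over 4000 bases -0.49. The part of length in the list medians was not tested. Of 19 tested mRNAs with a known 5′ tract that encode other proteins (translation factors, TPT1, VIM and the like), 8 were called higher at 6 h, 19 at 12 h and 19 at 24 h, and 0 lower, with medians of 0.52, 0.89 and 1.76. Among them TPT1 had 3.17 at 24 h and the elongation factor EEF2 1.42. Of 77 tested mitochondrial ribosomal protein genes 24, 31 and 61 were called higher and 10, 4 and 1 lower, with medians of 0.19, 0.40 and 1.20.

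Of 12 tested chaperones and assembly helpers of ribosomal proteins, 7, 7 and 12 were called higher at 6, 12 and 24 h and 0 lower, with medians of 0.48, 0.57 and 1.14. GRWD1, the chaperone of RPL3, had 1.88 at 6 h and 1.49 at 24 h, and BCCIP, which escorts RPL23, 1.55 and 1.85. Of 14 genes of ribosomal DNA transcription, 8, 8 and 6 were called higher and 1, 2 and 3 lower, with medians of 0.66, 0.47 and 0.33. POLR1G, a subunit of RNA polymerase I, was at 1.94 at 6 h and -0.12 at 24 h, and POLR1A, its largest subunit, at 0.51 and -0.81. Other genes of the list were called higher at 24 h: POLR1D at 1.54, TAF1D at 1.50, POLR1C at 1.48, POLR1E at 0.98, POLR1B at 0.83 and TAF1A at 0.56.

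Among 8 genes of LARP1 and mTORC1, 1, 1 and 3 were called higher and 2, 1 and 4 lower, with medians of 0.15, 0.01 and -0.41. MTOR fell at each time, by 0.56, 0.79 and 1.90, and LARP1, which holds and protects mRNAs with a 5′ tract, fell by 1.26 at 24 h. RPTOR, the scaffold of mTORC1, fell by 1.27 at 24 h. EIF4EBP1, the translation repressor that mTORC1 inactivates, rose by 1.56 at 24 h. RPS6KB2 and MLST8 were also called higher at 24 h, at 1.02 and 0.78. EIF4EBP2 was called lower, at -0.96, and RPS6KB1 was not called (0.15). These are mRNA levels, set beside no genes of like transcript length, and carry no measure of kinase activity.

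**Figure D5:**
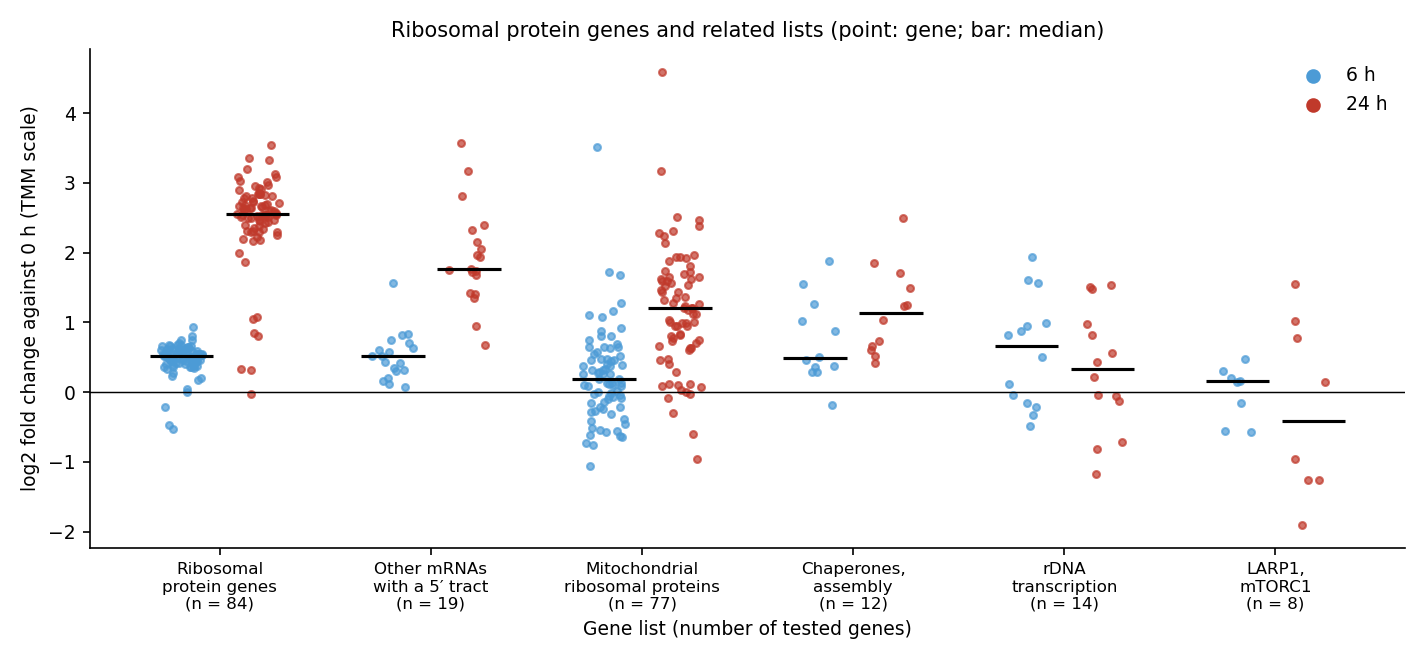
Log2 fold change against 0 h (y axis, TMM scale) at 6 h and 24 h for the 84 tested ribosomal protein genes and 5 related gene lists (x axis). Points are genes and bars are medians. The median of the ribosomal protein genes goes from 0.52 to 2.56, that of the other mRNAs with a 5′ tract from 0.52 to 1.76, and that of the LARP1 and mTORC1 genes from 0.15 to -0.41.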

How the data were processed

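Gene-level read counts were deposited by the authors for 11 libraries of RWPE1 RNA (stranded kit, single-end). Per the study's methods and processing notes, reads were trimmed with Trimmomatic, aligned with STAR to GRCh38 (hg38) and assigned with featureCounts. Strand and multi-mapping settings are not given in the sources used here. No column of the table was left unused (0). Members, related lists and tests were chosen with earlier results of these data known. Genes passing filterByExpr in edgeR 4.0.16 (R 4.3.3; minimum count 10, total 15) were scaled by TMM and tested by quasi-likelihood over all 11 libraries with time as the factor, with Benjamini-Hochberg adjustment over 19981 genes and a threshold of 0.05. A second fit used the members' own counts, times TMM factors over the members, as library size. limma 3.58.1 and DESeq2 1.42.0 were alternatives. The script was tested on simulated data. Named genes were the 5 highest and 5 lowest members by change at each time, by level per kilobase and against the pool at 24 h, the 5 with the widest gap between the 24 h libraries, the paralogues and their partners, and members with a stated role. Totals ran from 27496009 to 49488345 counts, and intervals cover counting error only. Lengths and overlaps came from GENCODE 44, and promoters from RefSeq. Values of some single genes are not reported here, though counts and medians include them.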

Additional observations from a re-analysis of the deposited data

Results flagged for a closer look

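The last 2 time points differed for most members: 82 of 84 were called higher at 24 h than at 12 h, where 15.1% of tested genes were. RPL7L1 went the other way from 6 h to 24 h, by -0.69 on the log2 scale (adjusted p = 0.00724 by edgeR; range over the alternatives 0.000597 to 0.114), while 80 members were called higher. Counts on ribosomal protein pseudogenes, outside the main measurement, took a mean of 8.12% of counts at 24 h against 2.57% at 0 h.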

How the results depend on the processing

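The medians at 12 h and 24 h stayed above 0 in every alternative tried, and the count at 6 h did not hold. At 6 h the members called higher were 73 with sample quality weights (32.8% of tested genes) and 23 with DESeq2 (26.1%). They were 2 with library size alone (13.6%), 44 with no filter (13.3%) and 6 with at least 10 counts in every library (26%). With the 2 groups alone they were 72 (31.6%), and with a length and GC offset 35 (30.8%). At 6 h, 1 was called lower in 4 settings and 2 with library size alone. At 12 h it was 1 in 3 settings, 2 with quality weights and 3 with library size alone. In these settings 15.2% to 42.3% of tested genes were called lower. Library size alone gave medians of 0.59 at 12 h, 1.51 at 24 h and 0.92 for 24 h against 12 h, with 3 lower at 24 h. From 6 h to 12 h, 62 were called higher with quality weights (10.6%), 1 with DESeq2 (3.63%), and 33 with no filter (2.24%) or the 2 groups alone (4.72%). From 12 h to 24 h, 0 were called with the 2 groups alone, and 1 was lower under 6 settings. With pseudogenes added, 3 and 4 members were called below the pool at 12 h and 24 h, where the share over all tested genes was not counted. The shares of counts were then 9.41%, 10.9%, 14.4% and 28.6% at 0, 6, 12 and 24 h. The share was 7.63% of nuclear counts at 0 h, and 7.89%, 9.10% and 12.3% of coding counts at 0, 6 and 12 h. The cause of these differences was not tested.

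Whether replicate numbers pair the samples could not be told. Deviations of same-numbered libraries from their group means correlated from -0.205 to 0.328, over 0.1 in 2 of 15 pairs. Deviations within a group of 3 or 2 libraries are tied to each other, so these values cannot decide it. With the replicate number as a block, 4 members were called higher at 6 h (23.9% of tested genes). With a length and GC offset as well, 22 were (29.1%). With the block alone, 2 were called above the pool at 24 h, where the share over all tested genes was not counted.

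With 1 library left out, the members called higher ranged from 1 to 69 at 6 h, 59 to 78 at 12 h, 78 to 82 at 24 h, 0 to 68 for 12 h against 6 h and 62 to 82 for 24 h against 12 h. Those called lower ranged from 0 to 1. The medians ranged from 0.44 to 0.58, 0.93 to 1.13, 1.79 to 3.05, 0.41 to 0.65 and 0.69 to 1.98. Against the pool, higher and lower calls ranged from 0 to 2 and 1 to 5 at 6 h, 0 to 4 and 4 to 7 at 12 h, and 2 to 15 and 7 to 17 at 24 h. Shares ranged from 6.81% to 6.90%, 7.47% to 8.14%, 9.82% to 11.1% and 15.7% to 25.2%.

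Changes of sign came from library size alone for RPL17 (-0.15), RPL36A (-0.64) and RPS27L (-0.22) at 24 h and for RPL7L1 (-0.023) and RPS27L (-0.44) at 12 h, from added pseudogenes for RPL36A at 6 h (0.62) and 12 h (1.32), and from the length and GC offset for RPL7L1 at 24 h (0.39).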
